A study of Mus musculus with 137 samples.

Results

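The comparison described here is that of bone marrow-derived macrophages carrying Beclin1 F121A on both alleles (genotype Beclin1F121A/F121A) with macrophages of littermate WT mice, each after 24 h with LPS and IFN-gamma. It rests on all 12 libraries of these groups, 6 per genotype, out of 137 in the series. Per the labels, the marrow came from mice aged 7 weeks and was grown for 7 days in M-CSF at 20 ng/ml, a factor that turns marrow precursors into macrophages. The cells were then given LPS at 100 ng/ml, a bacterial cell wall component sensed by TLR4, together with IFN-gamma at 100 ng/ml. Libraries of the same genotypes at 0 h (no stimulus) and 6 h, 6 each, serve as reference times. A second set, KO2, holds 8 libraries of Beclin1flox/flox-LysM-Cre+ cells, in which Cre is driven by the myeloid Lyz2 locus, and 7 of Beclin1flox/flox-LysM-Cre- cells at 24 h. The F121A allele is carried by every cell of the mouse, so that marrow precursors carry it as well. The labels do not say whether libraries of a group came from separate mice or cultures, and p-values measure the spread between these libraries, which may be technical.

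Beclin1 is the scaffold of the class III PI3-kinase complexes, which mark membranes with phosphatidylinositol 3-phosphate at the start of autophagy and along the endosomal route. BCL-2 holds Beclin1 in an inactive state through its BH3 domain, and the F121A change lies in that domain and weakens the hold, so that basal autophagy is raised in animals with the allele. In macrophages given LPS and IFN-gamma, NF-kB drives cytokine and chemokine genes, secreted type I interferon drives antiviral genes through the interferon-stimulated response element (ISRE), and IFN-gamma raises antigen presentation through CIITA.

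Becn1 itself was not called between the genotypes at 24 h. Its level was 25.2, 30.8 and 32.5 CPM (counts scaled to the library total; lowest, median and highest of 6 libraries) in F121A and 27.9, 32.1 and 34.3 CPM in littermates, and the groups overlapped. The log2 fold change, F121A over littermates throughout, was -0.04 ± 0.09 (standard error, SE) with an adjusted p of 0.881 in edgeR's quasi-likelihood test. The gene lies on the minus strand of chromosome 11 at chr11:101285952-101302286 (GRCm38). A count per gene cannot show a change of 1 residue, so the Becn1 level says nothing about the allele. All 12 libraries held Xist at 130 to 190 CPM and the Y-linked gene Ddx3y at 0.16 CPM or less. Total counts in genes ran from 6247816 to 11786453 per library (median 8407299.5).

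The 6 littermate libraries at 24 h fell into 2 sets by their number, which is given before the results because many calls rest on it. Over 3690 expressed genes, deviations from the group mean correlated at 0.0985 to 0.585 within libraries 1, 3 and 5 and within 2, 4 and 6, and at -0.769 to -0.188 across these sets. The mean correlation within the sets exceeded that across them by 0.882, while the same split of the other 5 groups gave 0.169 at most. The split was chosen from the littermates at 24 h, so the values of the other groups do not speak to sets of another kind in them. The first component within a group held 54.9% of the variance in littermates at 24 h and 68.6% in F121A at 0 h. On the first principal component of the 12 libraries, with 39.8% of the variance, littermates 2, 4 and 6 lay between the F121A libraries and littermates 1, 3 and 5. The labels name nothing that the odd and even numbers stand for. The fit of all libraries was therefore repeated without littermates 1, 3 and 5 and without littermates 2, 4 and 6, and a gene that was called with the same sign each time is said to be called in all 3 fits.

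**Figure D1:**
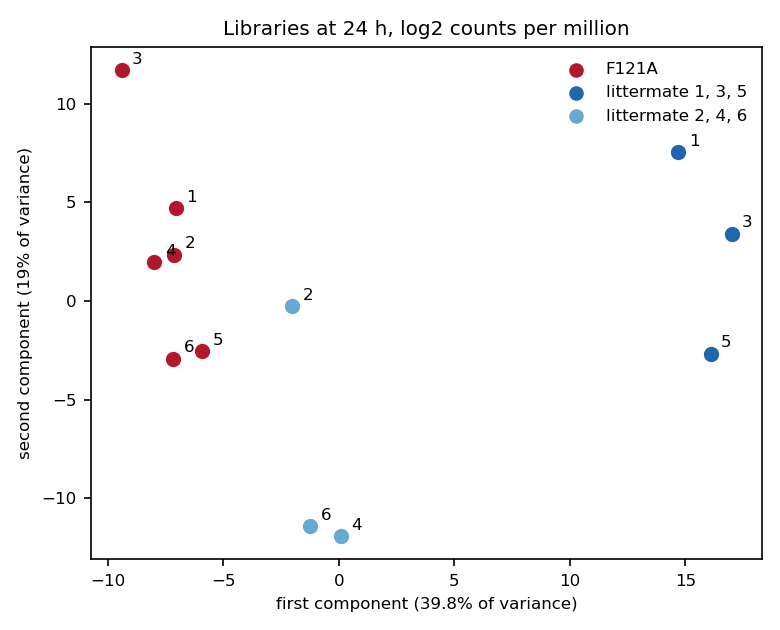
First and second principal components of log2 CPM in the 12 libraries at 24 h, 1 point per library with its number. The F121A libraries form 1 set on the left, and littermates 1, 3 and 5 lie apart on the right, at 14.7 to 17 on the first component, from littermates 2, 4 and 6 at -2.01 to 0.0736.

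With all 12 libraries, 828 of 11500 genes tested (7.2%) were called at an adjusted p under 0.05, of which 393 rose (3.42%) and 435 fell (3.78%) in F121A. The median log2 fold change over all genes was -0.0025. The called rises were small, with a median of 0.49, and the falls had a median size of 0.67. At least 2-fold changes made up 32 of the rises and 79 of the falls. Without littermates 1, 3 and 5, 203 of 11979 genes were called (1.69%), 130 higher (1.09%) and 73 lower (0.609%). Without littermates 2, 4 and 6, 1481 of 12095 genes were called (12.2%), 668 higher (5.52%) and 813 lower (6.72%). Leaving out single libraries gave from 517 calls without littermate 5 and 546 without littermate 3 to 989 without littermate 2.

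Called in all 3 fits were 72 higher genes (0.626% of those tested) and 57 lower genes (0.496%). Beyond them, 254 of the higher and 354 of the lower calls held without littermates 2, 4 and 6 but not without 1, 3 and 5, and 23 lower calls had the opposite sign there. The 6 F121A libraries lay above all 6 littermates for 196 of all genes tested (1.7%) and below them for 162 (1.41%). These include 176 of the called rises and 134 of the called falls.

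**Figure D2:**
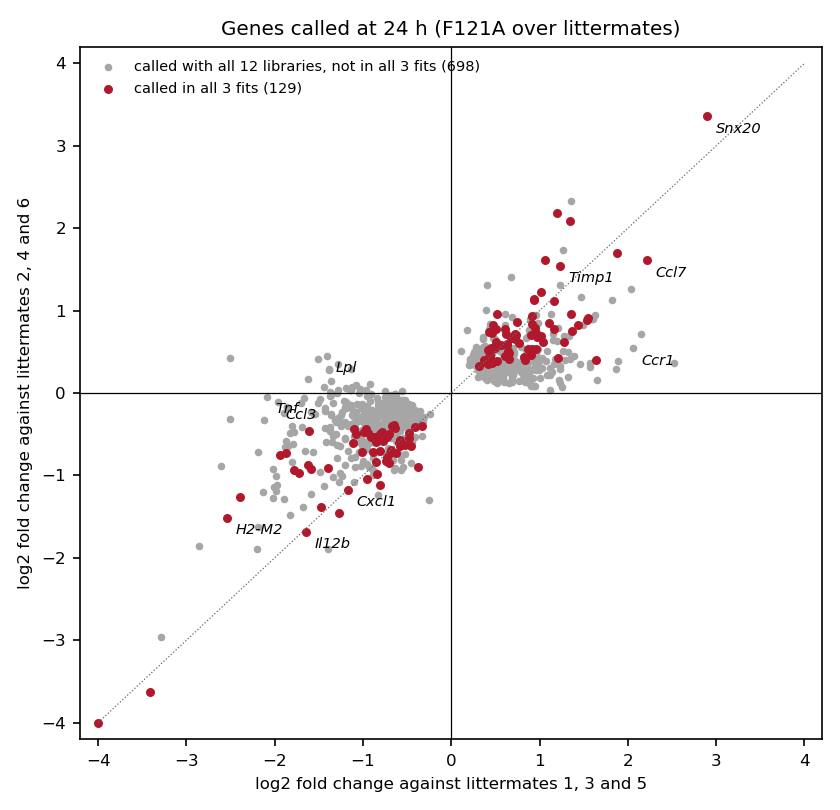
Log2 fold changes (F121A over littermates) of the 827 genes called with 12 libraries and tested in all 3 fits, against littermates 1, 3 and 5 on the x axis and against littermates 2, 4 and 6 on the y axis. Red points are the 129 genes called in all 3 fits, grey points the others, and 1 gene beyond a log2 fold change of 4 is drawn at the edge; Tnf and Ccl3 lie near 0 on the y axis.

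Antiviral genes induced by type I interferon were higher in F121A. Of 43 genes of this list tested, 14 rose and none fell, 8 rose in all 3 fits, and 42 of 43 had a positive fold change. The list's median log2 fold change was 0.26, against -0.0025 over all genes. Its summed level was 33000 to 37000 CPM in F121A, 24400 to 25400 CPM in littermates 1, 3 and 5, and 27100 to 27300 CPM in littermates 2, 4 and 6. Rsad2, which encodes viperin, a blocker of viral replication, stood at 6510, 7140 and 8460 CPM in F121A and at 2510, 3530 and 4450 CPM in littermates (lowest, median, highest). No F121A library reached down to a littermate. Its log2 fold change was 1.10 ± 0.13 (SE; edgeR adjusted p = 1.51e-07), and 0.82 without littermates 1, 3 and 5. Cmpk2, the nucleotide kinase gene that neighbours Rsad2 and is induced with it, rose by 1.17 ± 0.14. Mx1, an antiviral GTPase, stood at 418, 488 and 542 CPM against 217, 245 and 318 CPM. Ifit1 and Ifit2, which bind viral RNA or restrain its translation, rose by 0.55 and 0.84 on the log2 scale, and the groups did not overlap for either. Outside the list, Slfn4, a myeloid Schlafen gene, rose by 1.14, and Rsad2, Cmpk2, Mx1, Ifit1, Ifit2 and Slfn4 were each called in all 3 fits. The list of IFN-gamma targets was mixed, with 5 of 34 tested genes higher and 3 lower, and Fgl2 (1.04) was called in all 3 fits.

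The promoter of Rsad2 is shown because Rsad2 was the most abundant of the genes named from this list and holds a match to the ISRE. ISRE was searched as GAAA and GAAA with 2 free bases between them on both strands in the 250 bases before the start of each gene in RefSeq (GRCm38.p6), and 281 of 7965 tested genes with such a window held it (3.53%). Among the genes higher in all 3 fits, 5 of 45 with a window held it (11.1%), as did 17 of 273 among all called rises (6.23%), 13 of 313 called falls (4.15%) and 2 of 47 genes lower in all 3 fits (4.26%). The 5 of 45 were Arl6ip1, Gm5150, Ifit1, Lamp1 and Rsad2, while Cmpk2, Ifit2 and Slfn4 held no match in their windows. A match is a description of the letters and no evidence of binding. The window of Rsad2 is chr12:26456453-26456702 on the minus strand, written 5′ to 3′, and the capitals mark the match, which starts 120 bases before the gene's start.
Rsad2: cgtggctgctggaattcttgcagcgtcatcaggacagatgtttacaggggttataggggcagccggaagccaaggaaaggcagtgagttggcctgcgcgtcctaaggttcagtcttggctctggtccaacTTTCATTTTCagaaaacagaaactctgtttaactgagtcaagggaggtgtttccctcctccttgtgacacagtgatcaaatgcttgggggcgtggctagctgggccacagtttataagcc

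Chemokines moved in both directions, with 3 of 22 tested genes higher and 7 lower, and a list median of 0.03. The 3 that rose are the monocyte attractants Ccl7, Ccl2 and Ccl12, which are neighbours on chromosome 11, with Ccl2 at chr11:82035571-82037453 and Ccl7 at chr11:82045712-82047525 (GRCm38). Ccl7 stood at 50.7, 58.6 and 65.2 CPM in F121A and at 11, 16.9 and 20.3 CPM in littermates. The lowest F121A library was above the highest littermate for this gene, and its log2 fold change of 1.89 ± 0.13 had the smallest p of all genes tested at 24 h (edgeR adjusted p = 9.85e-14). Ccl2 stood at 557, 637 and 723 CPM against 251, 287 and 367 CPM, and Ccl12 at 5.15, 6.7 and 8.66 CPM against 3.05, 3.58 and 4.5 CPM. The groups did not overlap for either gene, and the log2 fold changes were 1.15 and 0.98.

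The neutrophil attractants Cxcl1, Cxcl2 and Cxcl3, ligands of CXCR2, fell in all 3 fits. Cxcl1 stood at 5.13, 7.89 and 8.72 CPM in F121A against 15.9, 16.4 and 19.4 CPM, a log2 fold change of -1.17 ± 0.17 that was the same against each set of littermates. Cxcl3 stood at 25.7, 38.5 and 50.8 CPM against 71.9, 102 and 136 CPM. Cxcl2 fell by 0.64 on the log2 scale, and none of the 3 genes had overlapping groups. The other 4 falls of the list, Ccl3, Ccl22, Cxcl5 and Cxcl16, were not called in all 3 fits.

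Of 39 inflammatory cytokine and NF-kB target genes tested, 2 rose and 9 fell, with a median of -0.11. Il12a, Il12b, Il6 and Il1a fell in all 3 fits. Il12b, the p40 chain of IL-12 and IL-23, stood at 39.1, 54.4 and 115 CPM in F121A and at 178, 204 and 239 CPM in littermates. Every littermate was above every F121A library, with a log2 fold change of -1.66 ± 0.38 (edgeR adjusted p = 0.00352). Il12a, the p35 chain of IL-12, fell by 1.44, at 2.09, 3.58 and 4.11 CPM against 6.1, 9.4 and 13.1 CPM. Il6 stood at 208, 273 and 334 CPM against 443, 531 and 592 CPM, and Il1a at 879, 998 and 1110 CPM against 1580, 1740 and 2090 CPM. The groups were separate for both, with log2 fold changes of -0.92 ± 0.23 and -0.80 ± 0.16. Without littermates 1, 3 and 5 the adjusted p of Il12b, Il6 and Il1a was 0.0398, 0.0453 and 0.0391. Il1b, the other IL-1 gene, was below the littermates in every F121A library but was not called (-0.35 ± 0.24, edgeR adjusted p = 0.463). Nos2, the inducible nitric oxide synthase, was not called either (-0.46 ± 0.31).

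The promoters of Cxcl1, Cxcl3 and Il6 are shown because these fallen genes hold a match to an NF-kB motif, searched as GGG and TTTCC with 2 free bases between them, on both strands. Of 7965 tested genes with a window, 159 held it (2%), against 4 of 47 genes lower in all 3 fits (8.51%), namely Cxcl1, Cxcl2, Cxcl3 and Il6, and 9 of 313 called falls (2.88%). Of called rises 8 of 273 held it (2.93%), as did 1 of 45 genes higher in all 3 fits (2.22%). The windows are chr5:90890995-90891244, chr5:90785851-90786100 and chr5:30012864-30013113, all on the plus strand of GRCm38.p6. Capitals mark the matches, which start 89 and 71 bases before the start in Cxcl1, 73 in Cxcl3 and 44 in Il6.
Cxcl1: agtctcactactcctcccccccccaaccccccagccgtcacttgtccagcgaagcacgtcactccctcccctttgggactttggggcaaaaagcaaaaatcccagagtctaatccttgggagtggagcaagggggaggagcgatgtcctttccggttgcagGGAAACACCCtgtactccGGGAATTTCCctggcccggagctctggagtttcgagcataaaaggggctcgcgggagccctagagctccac
Cxcl3: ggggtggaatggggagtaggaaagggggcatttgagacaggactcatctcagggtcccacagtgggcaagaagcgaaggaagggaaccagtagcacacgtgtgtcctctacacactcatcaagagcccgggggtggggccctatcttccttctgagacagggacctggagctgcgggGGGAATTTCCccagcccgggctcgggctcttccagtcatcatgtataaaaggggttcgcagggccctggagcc
Il6: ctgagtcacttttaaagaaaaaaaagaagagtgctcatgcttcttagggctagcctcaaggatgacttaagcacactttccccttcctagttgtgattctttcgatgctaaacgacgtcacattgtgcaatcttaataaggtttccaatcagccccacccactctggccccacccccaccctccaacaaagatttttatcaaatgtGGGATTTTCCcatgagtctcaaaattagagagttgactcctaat

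A set of calls of the 12 libraries depended on littermates 1, 3 and 5. A call can also be lost because fewer libraries were left, so its loss alone does not show where a difference came from. Tnf, the cytokine that starts much of the acute response, stood at 133 to 173 CPM in F121A, at 141 to 186 CPM in littermates 2, 4 and 6 and at 594 to 733 CPM in littermates 1, 3 and 5. Its log2 fold change was -1.40 with all libraries (edgeR adjusted p = 0.000158) and -0.05 without littermates 1, 3 and 5 (adjusted p = 0.95). Ccl3, an inflammatory chemokine, showed the same split, at 60.9 to 84.3 CPM against 62.9 to 87.8 and 263 to 333 CPM. Ccr1 stood at 464 to 550 CPM in F121A, above both sets of littermates (349 to 385 and 109 to 144 CPM), and missed the threshold without 1, 3 and 5 (0.55, adjusted p = 0.0587). The costimulatory gene Cd86 and the protease gene Adam8 likewise were called higher with 12 libraries but not without littermates 1, 3 and 5 (adjusted p = 0.206 and 0.707). Lpl, lipoprotein lipase, changed sign: it was called lower with 12 libraries (-0.77, adjusted p = 0.0203) and higher without littermates 1, 3 and 5 (0.45, adjusted p = 0.012). The hypoxia and HIF1 target list had 2 of 22 tested genes higher with 12 libraries (median 0.15), 1 without littermates 1, 3 and 5 (median -0.13) and 12 without 2, 4 and 6 (median 0.57). As examples picked after their values were seen, Hilpda, a lipid droplet protein induced by hypoxia, stood at 154 to 211 CPM in littermates 1, 3 and 5, at 824 to 1030 CPM in 2, 4 and 6 and at 693 to 829 CPM in F121A, and the metallothionein Mt1 at 46.4 to 50.5, 154 to 182 and 128 to 185 CPM. Neither gene was called with 12 libraries (adjusted p = 0.349 and 0.162). The part of such differences in the calls above was not tested beyond the fits without each set.

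**Figure D3:**
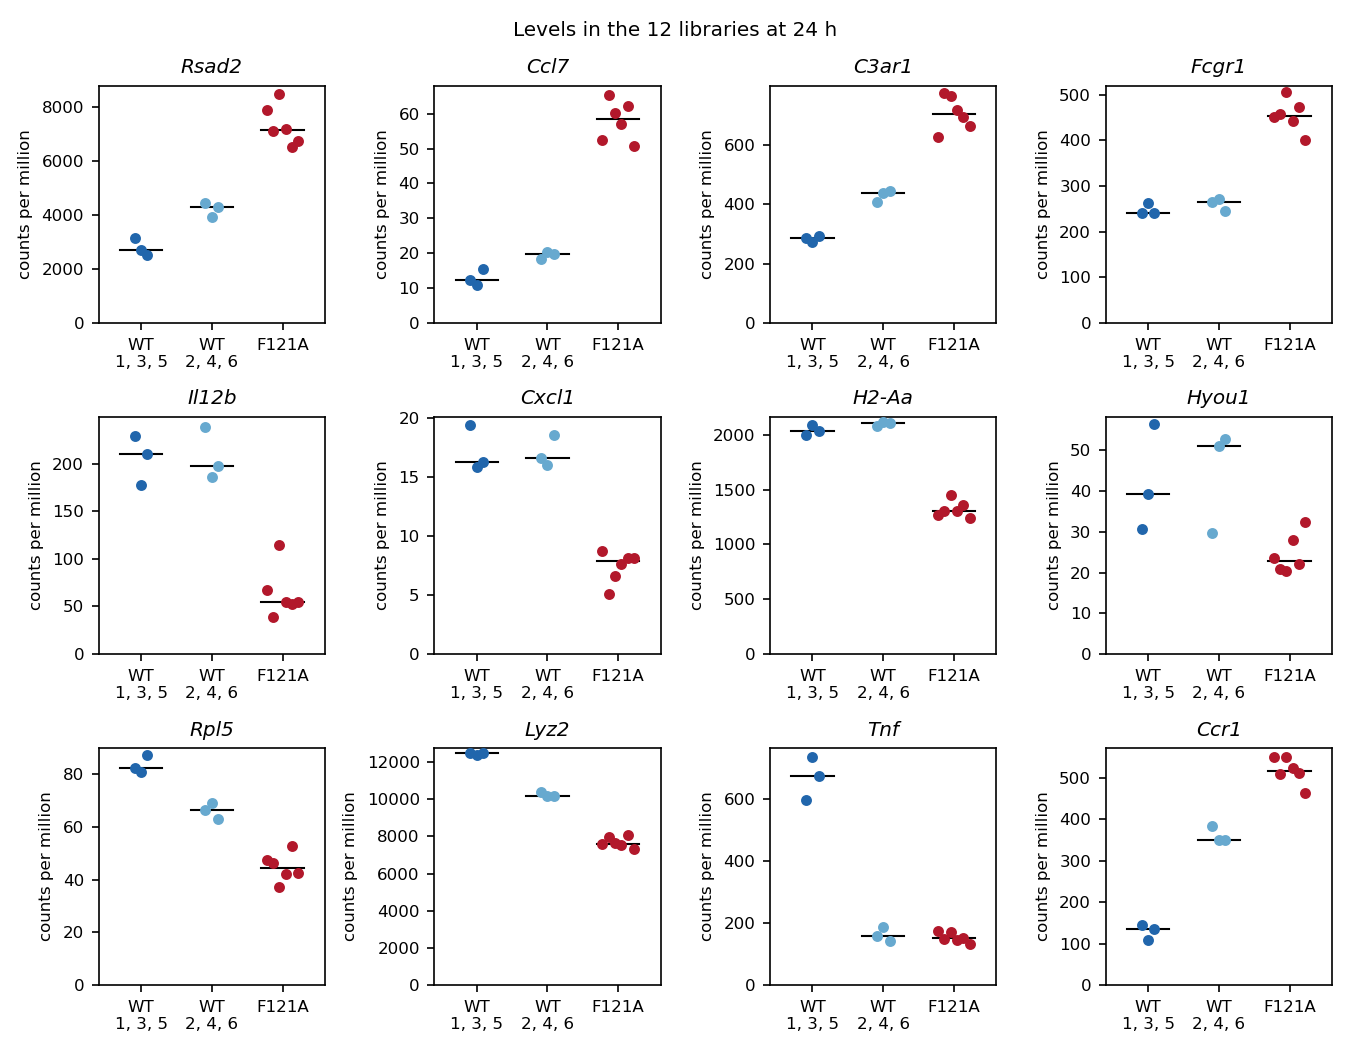
CPM of 12 genes in each library at 24 h, with littermates 1, 3 and 5, littermates 2, 4 and 6, and F121A as 3 columns of points and a line at each median. Rsad2, Ccl7, C3ar1 and Fcgr1 are higher and Il12b, Cxcl1, H2-Aa and Lyz2 lower in F121A than in both sets, while Tnf in F121A overlaps with littermates 2, 4 and 6.

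Fc receptor and complement genes were higher in F121A, with 9 of 17 tested genes called higher, 1 called lower, and a median of 0.45. C3ar1, Fcgr1, C1qa, C1qb and Cfp rose in all 3 fits. C3ar1, the receptor for the complement fragment C3a, stood at 626, 705 and 773 CPM in F121A and at 272, 350 and 443 CPM in littermates, a log2 fold change of 1.03 ± 0.11 (edgeR adjusted p = 3.51e-08). Fcgr1, the high-affinity IgG receptor CD64, stood at 401, 454 and 506 CPM against 240, 254 and 271 CPM. The groups were separate for both genes. C1qa and C1qb, which encode chains of the complement starter C1q, rose by 0.58 and 0.45, and Cfp, which encodes properdin, the stabiliser of the alternative pathway, by 0.67. Cfb, factor B of that pathway, was the gene called lower (-0.77) and was not called in all 3 fits. The scavenger receptor gene Cd36, which takes up oxidised lipids, stood at 255, 263 and 279 CPM against 155, 174 and 179 CPM and rose by 0.69 in all 3 fits. Its own list of phagocytic and scavenger receptors was mixed, with 4 of 24 tested genes higher and 3 lower, Marco among the falls, and a median of -0.11. Of the wider list of cytokine and chemokine receptors, 11 of 40 rose and 2 fell, with 2 rises, C3ar1 and Ltb4r1, in all 3 fits.

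MHC class II genes were lower in F121A. Of 18 tested genes of class II presentation and co-stimulation, 10 fell and 2 rose (Cd86 and Cd274), with a median of -0.51, and H2-Aa, H2-Ab1, H2-Eb1 and H2-DMb1 fell in all 3 fits. H2-Aa, an alpha chain of the class II molecule (chr17:34282744-34287823), stood at 1240, 1310 and 1450 CPM in F121A and at 2000, 2090 and 2120 CPM in littermates. The groups were far apart compared with the spread inside them, and the log2 fold change of -0.61 ± 0.09 (edgeR adjusted p = 5.35e-06) was -0.64 and -0.59 against the 2 sets of littermates. H2-Eb1 and H2-Ab1, the beta chains, fell by 0.69 and 0.58, and H2-DMb1, part of the peptide exchanger, by 0.82. H2-M2, a non-classical class I gene, fell by 2.12 ± 0.20, from 17.4, 35.2 and 48.5 CPM in littermates to 5.42, 8.03 and 9.61 CPM in F121A. Ciita and Cd74, the class II transactivator and the invariant chain, fell with 12 libraries (-0.43 and -0.77) but not in all 3 fits. Markers of conventional dendritic cells summed to 60.1 to 74.5 CPM in F121A, 79.4 to 98.1 CPM in littermates 1, 3 and 5 and 143 to 182 CPM in 2, 4 and 6. Of these 10 markers 5 were tested, Ccl22 (-1.01) and Ccr7 (-0.87) fell but not in all 3 fits, and Cd209a was at 0 in every library at 24 h. Ccr7, the receptor that guides cells to lymph nodes, stood at 48.6 to 64.1 CPM in F121A, 63.2 to 81.4 CPM in littermates 1, 3 and 5 and 128 to 168 CPM in 2, 4 and 6. The part of such cells in the class II result was not tested, and in bulk RNA fewer cells of a type and less RNA per cell cannot be told apart.

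Endoplasmic reticulum chaperones were lower, with 13 of 25 tested genes called lower, none higher, and a median of -0.31. Hyou1, Sdf2l1, Creld2 and Hsp90b1 fell in all 3 fits. Creld2, a chaperone for disulfide-rich proteins, stood at 36, 38 and 39.3 CPM in F121A and at 53.5, 56.1 and 64.5 CPM in littermates (log2 fold change -0.57 ± 0.09, edgeR adjusted p = 3.65e-05). Hsp90b1, the chaperone GRP94, fell by 0.37, at 265 to 303 CPM against 353 to 399 CPM. Both were separate between the groups, while Hyou1 (-0.78) overlapped at 20.3 to 32.3 against 29.8 to 56.4 CPM. The ER stress element (ERSE), searched as CCAAT and CCACG with 9 free bases between them on both strands, was held by 12 of 7965 tested genes (0.151%) and by 6 of 313 called falls (1.92%), namely Calr, Canx, Creld2, Dnajc3, Hsp90b1 and Pdia6. It was held by 2 of 47 genes lower in all 3 fits (4.26%) and by no called rise. The window of Creld2 is shown because it holds a match in a gene that fell in all 3 fits, at chr15:88819396-88819645 on the plus strand, with the match in capitals from 126 bases before the start.
Creld2: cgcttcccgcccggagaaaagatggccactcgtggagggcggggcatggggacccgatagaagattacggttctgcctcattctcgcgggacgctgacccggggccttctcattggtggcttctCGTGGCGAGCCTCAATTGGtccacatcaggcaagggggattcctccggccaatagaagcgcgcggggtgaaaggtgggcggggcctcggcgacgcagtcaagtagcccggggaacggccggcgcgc

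Cytosolic heat shock genes fell in 6 of 20 tested genes, with Hspa1b in all 3 fits, and none rose; reads of Hspa1b and its near-identical copy Hspa1a may be split between them. Genes of the NRF2 and antioxidant list fell in 9 of 32 and rose in 1 (Hmox1), with Gstm1 lower in all 3 fits. Ribosomal protein genes were lower as a list, with 47 of 51 tested called lower and none higher, a median of -0.54 and no positive fold change among 51. Their summed level was 3300 to 4260 CPM in F121A, 4240 to 4840 CPM in littermates 2, 4 and 6 and 5450 to 5710 CPM in 1, 3 and 5. Only 8 of the 47 were called in all 3 fits, Rpl5 (-0.71 ± 0.11) among them. Rpl5 stood at 37, 44.4 and 52.7 CPM in F121A against 63.1, 74.9 and 87.4 CPM, and the groups did not overlap. Nuclear-encoded oxidative phosphorylation and vacuolar ATPase genes had no call among 40 and 17 tested, at medians of -0.09 and 0.02. Of 12 mitochondrially encoded genes tested, 1 was called lower, mt-Atp8, but not in all 3 fits. None of the 12 had a positive fold change, and their median was -0.24.

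**Figure D4:**
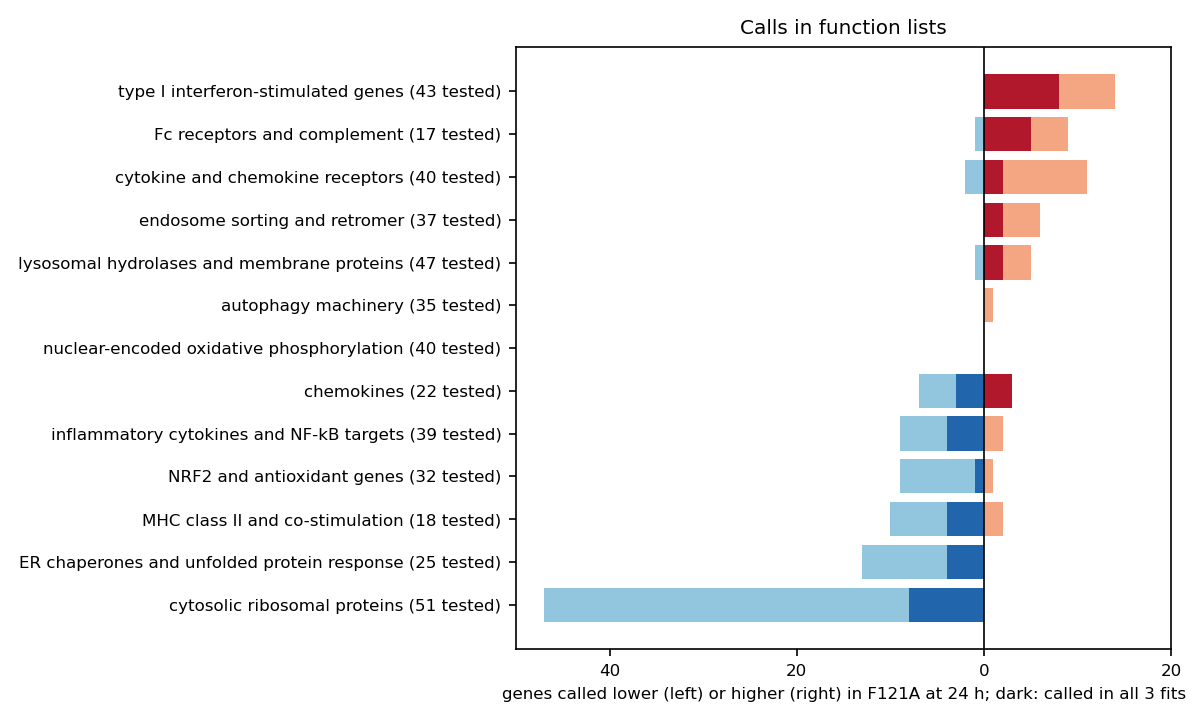
Number of genes called lower (left) or higher (right) in F121A at 24 h in 13 function lists, with the number tested beside each name and the calls of all 3 fits in the dark shade. Interferon-stimulated and Fc receptor and complement genes extend to the right, and ribosomal, ER chaperone and class II genes to the left.

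The counts and medians of the lists depended on the littermates used, and some medians changed sign, among them those of inflammatory cytokines, chemokines and lysosomal genes. The share of all genes called changed as well. It was 1.09% higher and 0.609% lower without littermates 1, 3 and 5, and 5.52% and 6.72% without 2, 4 and 6. A change in the number of calls is therefore not by itself a result about a list. Without littermates 1, 3 and 5, the interferon-stimulated list had 10 rises and no fall (median 0.26), Fc receptor and complement genes 7 rises and no fall (0.48), class II genes 4 falls (-0.37), ER chaperones 4 falls (-0.22) and ribosomal protein genes 8 falls (-0.37). The inflammatory cytokine median went from -0.11 to 0.01, with 5 falls and no rise, that of chemokines was 0.16, with 6 rises and 3 falls, and that of lysosomal genes was 0.09. NRF2 and heat shock falls went to 1 each. Without littermates 2, 4 and 6, the chemokine median was -0.18 (3 rises and 8 falls), the NRF2 list had 16 falls and 3 rises, heat shock genes had 12 falls, and the autophagy machinery had 6 rises and no fall (median 0.12). There the interferon-stimulated list had 11 rises and no fall, Fc receptor and complement genes 8 rises and 3 falls, and the class II, ER chaperone and ribosomal lists 9, 15 and 48 falls, with 3 rises in class II. The inflammatory median was there -0.23, with 3 rises and 11 falls.

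Counts of calls in autophagy and endosome lists stand beside shares over all genes of 3.42% called higher and 3.78% called lower. Of 35 tested genes of the autophagy machinery, 1 rose and none fell. The rise was Atg12, the ubiquitin-like conjugate of ATG5 (0.36 ± 0.11), and it was not called in all 3 fits. Of 14 genes of the Beclin1 and class III PI3-kinase complexes, Sh3glb1 (BIF-1, a binder of UVRAG) and Glipr2 (GAPR-1, a binder of Beclin1) rose, by 0.33 and 0.53, and neither was called in all 3 fits. Among endosome sorting genes 6 of 37 rose and none fell, and Snx1, a retromer-linked sorting nexin, rose by 0.38 in all 3 fits. Lysosomal genes gave 5 rises and 1 fall of 47, with Lamp1 and Lgmn (legumain, a lysosomal protease) in all 3 fits. Lgmn stood at 360, 383 and 426 CPM against 221, 260 and 322 CPM and rose by 0.62.

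A further 5 genes had levels that varied widely among libraries or were near 0 in F121A. Snx20, a sorting nexin on chromosome 8 (chr8:88626563-88636128), had the largest rise among the abundant genes, 3.10 ± 0.36. Its level was 24.4, 100 and 129 CPM in F121A and 5.12, 7.43 and 21 CPM in littermates, which did not overlap. Rac1, a small GTPase of phagocytosis and the NADPH oxidase (chr5:143503634-143528036), stood at 31.6, 76 and 101 CPM against 16.3, 21.5 and 22.7 CPM (1.79 ± 0.35). Lamp1, a lysosomal membrane protein (chr8:13159161-13175338), stood at 1150, 1810 and 1990 CPM against 506, 753 and 1180 CPM, where the groups overlapped slightly (1.12 ± 0.24). Rnf223, a ring finger gene (chr4:156130513-156133420), had no count in any of 6 F121A libraries and 0.79, 1.29 and 2.57 CPM in littermates. Against a floor of 3 counts over the F121A group, 0.0598 CPM, it was at least 26.1-fold lower. Arhgef18, a guanine nucleotide exchange factor (chr8:3393006-3456601), stood at 0, 0.0446 and 0.148 CPM against 0.443, 0.903 and 1.12 CPM. All 5 genes were called in all 3 fits.

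Several other genes were called in all 3 fits. Timp1, an inhibitor of matrix proteases, rose by 1.37, at 13.5, 18 and 19.2 CPM against 5.38, 6.44 and 9.67 CPM. Plin2, a lipid droplet coat protein, stood at 1160, 1400 and 1430 CPM against 675, 797 and 878 CPM and rose by 0.81. Abcg1, a cholesterol exporter, rose by 0.73, at 115, 123 and 132 CPM against 63.2, 72.7 and 93 CPM. Lower were Lyz2, the macrophage lysozyme (7320, 7610 and 8090 against 10200, 11400 and 12500 CPM; -0.52 ± 0.09), Cav1, a caveolar coat protein (-1.31), Tlr2, a receptor for bacterial lipoproteins (-0.76), and S100a8, a calprotectin chain (-1.31). Ctla2b, a cathepsin inhibitor-like gene with a close copy, fell by 1.48. Of 11 macrophage markers tested, 5 rose and 2 fell, 3 and 1 of them in all 3 fits, with a median of 0.33. Their summed level differed in sign from that median, at 17700 to 20100 CPM in F121A and 21200 to 23800 CPM in littermates, and the fall of all 3 fits was Lyz2 (-0.52). Neutrophil markers summed to 62.5 to 79.8 CPM against 61 to 86.6 CPM. Of these 15 markers 7 were tested, and S100a8, named above, was called lower in all 3 fits, with no other called at 24 h with 12 libraries. At 0 h 3 of the 7 were called lower and none higher, and at 6 h 4 lower and 1 higher. T cell markers summed to 3.06 to 5.33 CPM against 1.89 to 3.73 CPM, with 2 of 9 tested and neither called (1 was called higher without littermates 2, 4 and 6), and 7 of the 9 under 1 CPM in every library at 24 h. B cell markers summed to 1.27 CPM at most and NK cell markers to 0.328 CPM, and Cd3e, Trac, Cd79b, Vpreb3, Gzma, Prf1 and Eomes were at 0 in every library at 24 h.

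Genes near Becn1 were counted separately. Within 1000 kb on each side of the gene, 43 genes were tested, of which Stat3 and Tmem106a rose and Cntnap1 and Rpl27 fell (9.3%), none of them in all 3 fits. On all of chromosome 11, 7.49% of 881 genes were called, against 7.2% of all genes.

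The 24 h differences were partly present at other times. At 0 h 338 genes were called (2.94%; 272 higher, 2.37%, and 66 lower, 0.574%), and at 6 h 1322 (11.5%; 921 higher, 8.01%, and 401 lower, 3.49%). Of the 393 rises at 24 h, 20 were called higher at 0 h, 138 at 6 h and 17 at both times; of the 435 falls, 10, 91 and 7. Of the 72 rises in all 3 fits, 46 were called higher at 6 h and none lower, and of the 57 falls 22 were called lower and 4 higher (Sepw1, Creld2, Edem2 and Itm2c). Called higher at every time and in all 3 fits at 24 h were Fgl2, Heatr2, Ifit1, Ifit2, Lamp1, Rac1, Rsad2 and Snx20, and lower Arhgef18, Cav1, Npy, Rnf223 and S100a8. Without F121A library 5 at 0 h, which stood apart with 47.1% of its counts in its 10 most abundant genes against 27.3 to 30.2% in the rest of its group, Rsad2 and Ifit2 were no longer called at 0 h (adjusted p = 0.15 and 0.151). Lamp1 had log2 fold changes of 3.62, 2.11 and 1.12 at 0, 6 and 24 h, and the difference between 24 h and 0 h was called (-2.5 ± 0.33).

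Il12b, Il6 and Il1a were called higher in F121A before stimulation and lower at 24 h. At 6 h Il6 and Il1a were called lower (-0.76 and -0.59), and Il12b was not called (-0.68, edgeR adjusted p = 0.263). Their log2 fold changes at 0 h were 2.19, 2.15 and 2.0 (edgeR adjusted p = 0.00354, 0.00354 and 0.00164), at low levels. Il12b stood there at 1.24, 21.8 and 30.5 CPM in F121A and 0.43, 3.39 and 8.58 CPM in littermates, and Il6 at 0.24, 3.27 and 5.71 CPM against 0.0977, 0.713 and 1.32 CPM. The groups overlapped at their lower ends. The difference of the genotype effect between 24 h and 0 h was -3.86 ± 0.61, -3.06 ± 0.52 and -2.80 ± 0.43 for the 3 genes, all called. Over all genes, 490 differences between 24 h and 0 h were called (4.26%; 211 upward, 1.83%, and 279 downward, 2.43%) and 504 between 24 h and 6 h (4.38%; 118 upward, 1.03%, and 386 downward, 3.36%). The first count was 246 without littermates 1, 3 and 5 and 975 without 2, 4 and 6, and the second was 364 and 937. By the rule of smallest p, the 24 h to 0 h differences named are Gclm (-2.54), Plin2 (1.19), Ccdc90a (-1.61), Zfand5 (-2.23) and Fam49b (-1.98), and those to 6 h Ggta1 (-1.31), Ptpn1 (-1.43), Sc4mol (1.15), Gatm (-1.89) and Itm2c (-1.12). Gclm, the modifier subunit of the enzyme that starts glutathione synthesis, was 1.95 higher at 0 h and not called at 24 h (-0.60, adjusted p = 0.0549). Plin2 and Abcg1 were called lower at 0 h (-0.37 and -0.48) and higher at 24 h. Without F121A library 5 at 0 h, Plin2 was no longer called there (-0.32, edgeR adjusted p = 0.102), while Abcg1 still was (-0.45, adjusted p = 0.0134).

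**Figure D5:**
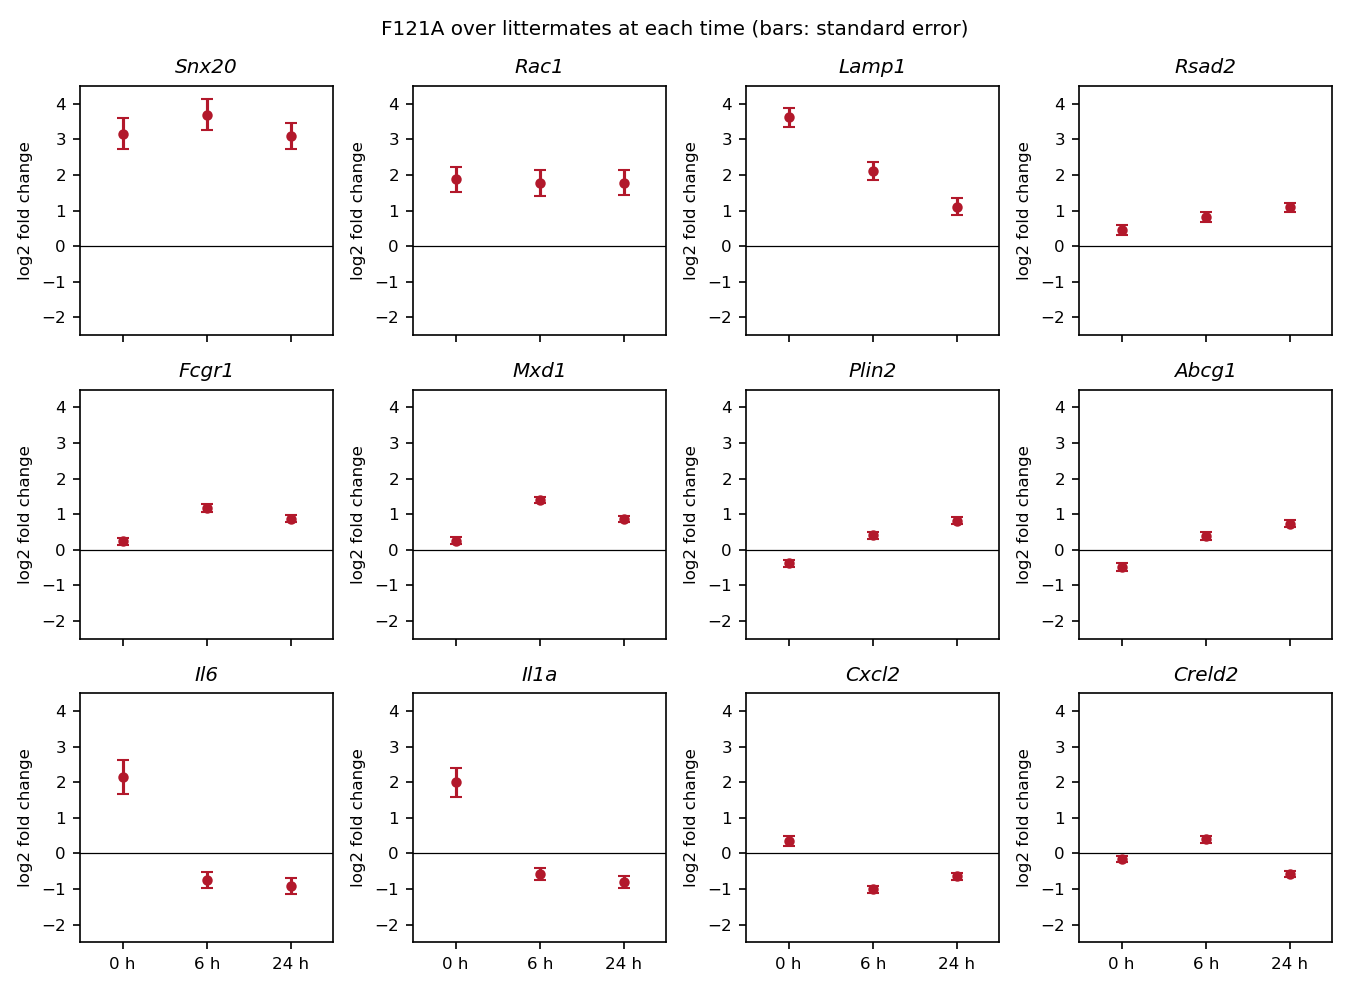
Log2 fold changes of 12 genes, F121A over littermates at 0, 6 and 24 h, with bars of 1 SE. Snx20, Rac1 and Lamp1 are above 0 at every time, Plin2 and Abcg1 pass from below 0 to above it, and Il6 and Il1a from above 0 to below it.

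Of the genes that littermates raised or lowered between 0 h and 6 h (8450 of 11500, 73.5%; 4217 up, 36.7%, and 4233 down, 36.8%), 5.64% of the raised genes were higher and 5.43% lower in F121A at 24 h. The shares were 2.6% and 2.72% among the lowered genes and 1.48% and 2.98% among the 3050 genes called in neither direction. Littermates at 6 h share no library with the 24 h comparison.

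KO2, the loss of Beclin1 in myeloid cells, was set beside F121A at 24 h because both alter Beclin1. In KO2, 1222 of 10794 genes were called (11.3%; 676 higher, 6.26%, and 546 lower, 5.06%). Total counts of the KO2 libraries at 24 h ran from 1448218 to 15627379, a wider range than in the F121A comparison. The 2 genotypes of KO2 differed in sex as well, with Xist at 115 CPM or more in Cre-negative libraries and at 1.38 CPM or less in Cre-positive ones, whose Ddx3y was at 9.63 CPM or more, and sex and genotype cannot be told apart there. Of 387 genes higher in F121A that were tested in KO2, 77 were called higher there too (19.9%, and 11.9% of the 649 KO2 rises tested here) and 39 lower. Of 426 lower genes, 40 were called lower (9.39%, and 7.33% of the 546 KO2 falls tested) and 80 higher. Of the genes of all 3 fits, 21 of 71 rises were called in the same direction and 11 in the opposite one, and 7 of 55 falls in the same and 21 in the opposite. Rsad2 was higher in both (1.10 and 1.12), and Cav1 lower in F121A and higher in KO2 (1.11). The effects themselves differed for 836 of 11782 genes (7.1%), 355 upward (3.01%) and 481 downward (4.08%), for 497 without littermates 1, 3 and 5 and for 1114 without 2, 4 and 6. Il1a (-3.98 ± 0.23), H2-M2 (-4.31), Ccl3 (-4.61), Inhba (-3.29), Il12b (-3.48), Il12a (-4.69), Cxcl1 (-4.36) and H2-Aa (-1.59) were lower in F121A relative to KO2. Xist, which differs with sex in KO2, was also among the 5 smallest p of this test. The fall of Ccl3 in F121A came from littermates 1, 3 and 5, as given above. Il1a and H2-M2 were called higher in KO2 against its control (3.18 and 2.19). Becn1 differed by 2.59, at -0.04 in F121A and -2.63 in KO2.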

How the data were processed

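RNA was profiled by Smart-Seq2 with oligo-dT priming, without strand marks or molecular identifiers, per the labels' protocols. The authors deposited raw counts of each gene symbol in each library. TopHat, HTSeq and mm10 are named in the submitters' processing notes, without versions. Counts of overlapping or nearly identical genes are uncertain for this reason.

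All 36 libraries of the F121A cohort entered 1 edgeR fit (4.0.16, R 4.3.3) with a mean for each of 6 groups, after filterByExpr and TMM. The quasi-likelihood F test was adjusted by Benjamini-Hochberg across the 11500 genes, and a gene was called at an adjusted p under 0.05. SE was obtained from the fold change and its F statistic. CPM is per library total, without TMM. KO2 was fitted alone and, for differences of effects, jointly with the F121A cohort. No 2 libraries of a group agreed within counting noise at 24 h (smallest chi-square per degree of freedom 3.77 over 30 pairs). On simulated counts, 76% of genes changed 2-fold and 94% of those changed 4-fold were called, beside 7 of the unchanged genes, among 11387 genes with 200 changed. These counts were drawn independently for each library, without the 2 sets of littermates seen at 24 h. The simulation therefore does not show how calls behave where libraries share a shift. 1 littermate library at 6 h has labels that conflict on its time and was kept.

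Genes named are Becn1 and Lyz2, the 15 highest and 15 lowest fold changes and 10 smallest p of called genes whose mean log2 CPM was 3 or more, up to 4 called members of each function list, the 5 smallest p of each difference test, the 5 largest changes in each direction called alike in F121A and KO2, and called markers. Not all are printed, and a member of the ribosomal list is not reported here. Il1b, Nos2, Hilpda, Mt1, genes called at every time, genes near Becn1 and motif holders were added after their values were seen. H2-Ab1, Ciita, Cd74, Ccl12, Cfb, Cxcl5, Cxcl16, Sepw1 and Edem2 are also outside the rule, as are Ddx3y and the markers without counts. The comparison, the 45 function lists and the 15 marker lists were chosen with earlier results of these data known. Alternatives were DESeq2 1.42.0, its size factors, no filter, only the groups compared, a replicate block, pairs of numbers summed, voom with quality weights in limma 3.58.1, and each library left out. The fits without littermates 1, 3 and 5 or 2, 4 and 6, with odd and even numbers summed, and without F121A library 5 at 0 h were added after seeing the data.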

Additional observations from a re-analysis of the deposited data

Results flagged for a closer look

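Among 176 groups of 6 libraries checked (88 genes printed in the text, both genotypes at 24 h), 8 held a library far from the other 5, by Dixon's test on the gap to the nearest library, and chance alone gives such a gap in about 1 of 20 groups. In F121A, library 3 was the highest for Il12b (115 CPM, still below every littermate), Ccl22 (5.63 CPM) and Ltb4r1 (2.96 CPM), library 1 the highest for Glipr2 (65.1 CPM), and library 6 the lowest for Atg12 (61.7 CPM) and Cfp (270 CPM). In littermates, library 3 was the highest for Heatr2 (2.97 CPM) and library 6 for Hsp90b1 (399 CPM).

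The genotype effect differed between 24 h and 0 h, in edgeR's test of the difference, by -3.86 for Il12b, -3.06 for Il6, -2.80 for Il1a, -2.5 for Lamp1, -2.54 for Gclm, -2.23 for Zfand5, -1.98 for Fam49b, -1.61 for Ccdc90a and 1.19 for Plin2 on the log2 scale. Between 24 h and 6 h it differed by -1.89 for Gatm, -1.43 for Ptpn1, -1.31 for Ggta1, -1.12 for Itm2c and 1.15 for Sc4mol. Between F121A and KO2 at 24 h the effects differed by -4.69 for Il12a, -4.61 for Ccl3, -4.36 for Cxcl1, -4.31 for H2-M2, -3.98 for Il1a, -3.48 for Il12b, -3.29 for Inhba, -1.59 for H2-Aa and 2.59 for Becn1. Sex differs with genotype in KO2, and its part in these differences was not tested.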

How the results depend on the processing

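At 24 h, 815 of the 828 calls were shared by DESeq2 (978 calls), and its size factors in edgeR gave 815 calls, the 2 groups alone 631 and voom with quality weights 960. Without the filter on low counts the split of calls moved from 47.5% to 36.6% higher (740 calls), and between 24 h and 0 h from 43.1% to 29.5%, and at 6 h from 69.7% to 58.3% (59.7% with the 2 groups alone). The replicate block gave 865 calls, 795 of them shared. The correlation of same-numbered libraries across genotypes at 24 h was 0.00103 to 0.308, and whether such libraries share a source was not tested. Leaving out 1 library gave 517 to 989 calls at 24 h, 354 to 624 between 24 h and 0 h and 359 to 689 between 24 h and 6 h, and the fewest calls came without littermate 5.

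Without littermates 1, 3 and 5 there were 203 calls at 24 h, 246 between 24 h and 0 h and 497 between F121A and KO2, and without 2, 4 and 6 there were 1481, 975 and, between 24 h and 6 h, 937. Odd and even numbers summed, which leaves 2 samples per group, gave 183 at 24 h, 145 at 0 h, 496 at 6 h, 86 between 24 h and 0 h and 93 between 24 h and 6 h. Of the named genes, 95 kept their sign but lost their call without littermates 1, 3 and 5, and 72 kept both sign and call status. There 5 called genes changed sign, Alas1 (0.27), Gatm (0.069), Lpl (0.45), Ptgir (0.15) and Tgfbi (0.35), and the cause was not tested. With odd and even numbers summed, 99 named genes lost their call. Depth limits low genes such as Rnf223 and Arhgef18.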
